A study of Mus musculus with 10 samples.

Results

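The transcripts described here are those of the constitutive proteasome subunits, measured in whole mouse lenses. Members were the genes with a single-symbol probe set whose symbol is Psma, Psmb, Psmc or Psmd followed by a digit, leaving out the immunoproteasome genes Psmb8, Psmb9 and Psmb10. The rule took in 37 of the 18193 genes on the array. They were 8 alpha (Psma1 to Psma8) and 8 beta genes (Psmb1 to Psmb7 and Psmb11) of the 20S core, 6 ATPases (Psmc1 to Psmc6) and 14 non-ATPases (Psmd1 to Psmd14) of the 19S cap, and Psmc3ip. Psmc3ip encodes a partner of the meiotic recombinases and is not a proteasome subunit, so it is given apart. Psmd5, Psmd9 and Psmd10 encode chaperones that assemble the base of the cap, and they are counted here among the cap genes.

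The 4 groups of lenses were compared on 1-colour Affymetrix arrays, 10 arrays in all. Postnatal day 56 (PN56) was represented by 2 arrays of lenses labelled Klf4CN, a conditional null of the zinc finger transcription factor Klf4, and by 2 arrays of wild-type (WT) lenses. Embryonic day 16.5 (E16.5) was represented by 3 arrays of lenses labelled Klf4CN and by 3 of WT lenses. Each array held an independent preparation, made from lenses of 3 pooled young adults at PN56 or 5 pooled embryos at E16.5, so the animals' own spread is averaged within a pool. The labels used here name neither the strain, the promoter that drives the recombinase nor the cells that lose Klf4.

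The proteasome is the barrel-shaped protease that degrades proteins tagged with ubiquitin. Its 20S core is a stack of rings in which alpha subunits form the gate and the beta subunits Psmb5, Psmb6 and Psmb7 hold the active sites. The 19S cap binds the ubiquitin chain, removes it, and unfolds the substrate with a ring of ATPases that threads it into the core. In the lens, fibre cells lose their nuclei and organelles as they mature, and they are kept for life. The transcription factor Nfe2l1 (Nrf1), paired with small Maf proteins such as Mafg, is known to raise proteasome subunit genes through antioxidant response elements.

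Upstream sequences are shown for Psmd9, Psma5, Psmd11 and Psmd8, the genes on which the genotype results turn, and for the catalytic subunits Psmb5 and Psmb6. RefSeq promoters of mouse assembly GRCm38.p6, each 300 bases from 250 before to 50 after the gene start, matched 29 of the 36 proteasome genes and gave 31 promoters. The core of the antioxidant response element, searched as TGACNNNGC on both strands, was found in 5 of the 31, or 16.1%, against 12.4% of all 32851 promoters in the table. Those 5 belonged to Psmb5, Psmb6, Psmd9, Psmc6 and Psmd12. The 150 bases before the start are printed 5′ to 3′, with a match to this core in capitals. The first 3 windows are those that hold a match, which begins at position -31 in Psmd9, -47 in Psmb5 and -9 in Psmb6 relative to the start. The windows of Psma5 and Psmd11, both called between genotypes at PN56, and of Psmd8, called for its change between ages, hold none in these letters.
Psmd9, chr5:123228040-123228189, plus strand: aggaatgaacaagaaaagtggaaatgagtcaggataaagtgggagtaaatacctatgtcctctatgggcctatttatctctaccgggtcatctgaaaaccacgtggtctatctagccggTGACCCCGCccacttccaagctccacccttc
Psmb5, chr14:54617996-54618145, minus strand: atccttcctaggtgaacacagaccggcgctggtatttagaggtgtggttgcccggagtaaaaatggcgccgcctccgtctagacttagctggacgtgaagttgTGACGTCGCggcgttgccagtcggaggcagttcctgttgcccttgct
Psmb6, chr11:70525207-70525356, plus strand: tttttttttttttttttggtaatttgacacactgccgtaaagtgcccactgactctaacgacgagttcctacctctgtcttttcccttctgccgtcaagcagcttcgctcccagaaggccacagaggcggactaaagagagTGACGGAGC
Psma5, chr3:108256776-108256925, plus strand: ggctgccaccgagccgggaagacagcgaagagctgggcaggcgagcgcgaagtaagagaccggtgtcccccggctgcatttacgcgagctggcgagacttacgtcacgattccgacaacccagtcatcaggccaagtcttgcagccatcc
Psmd11, chr11:80428465-80428614, plus strand: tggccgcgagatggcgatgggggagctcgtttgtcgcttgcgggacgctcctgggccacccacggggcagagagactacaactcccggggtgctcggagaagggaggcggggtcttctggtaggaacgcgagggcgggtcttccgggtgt
Psmd8, chr7:29180674-29180823, minus strand: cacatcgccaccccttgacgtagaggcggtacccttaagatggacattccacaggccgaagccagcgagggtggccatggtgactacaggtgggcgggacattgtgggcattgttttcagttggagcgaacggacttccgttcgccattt

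Other motifs, searched on both strands, are given as shares with no test. The CCAAT box (CCAAT) was in 38.7% of the proteasome promoters and 37.4% of all promoters. A GC box (GGGCGG) was in 58.1% against 35.7%, with 72.2% among the 18 promoters of 19S genes and 38.5% among the 13 promoters of 20S genes. The CACCC letters that Kruppel-like factors are known to bind were in 41.9% against 57.5%. A match describes letters in this window and not binding.

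Nearly all proteasome genes could be tested. Of the 36 proteasome genes, 34 passed the filter on dim genes, which asked for a mean signal of at least about 45.1, with 14 of 16 core genes and all 20 cap genes passing. The lowest signal of any of the 34 on any array was 680.0, that of Psmd9 on a PN56 WT array, so all of them lay far above that filter. The exceptions were Psma8, an alpha subunit known from the testis, and Psmb11, a beta subunit known from the thymus. Psma8 had signals of 4.4 to 99.1 over the 10 arrays, and Psmb11 had 11.3 to 67.1. Neither was tested, and Psmc3ip, with signals of 203.9 to 475.3, was tested but called in none of the 5 comparisons.

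Facts of the arrays that bear on every comparison are few. Deposited signals were scaled so that each array has a trimmed mean of 500, while median signals were 91.0 to 108.6 at PN56 and 63.0 to 76.9 at E16.5. Correlations between arrays of a group, across the 13440 tested genes, were 0.952 to 0.981. The dap spike control had a signal of 6.5 to 14.5 at PN56 and 3125 to 4159 at E16.5, so age and preparation cannot be told apart. Klf4 itself had signals of 732 and 702 in PN56 lenses labelled Klf4CN and 156 and 214 in PN56 WT lenses, and 1360.3, 805 and 1072 in E16.5 lenses labelled Klf4CN and 774, 1015 and 428 in E16.5 WT lenses. It was higher in the lenses labelled Klf4CN at PN56 (log2 difference 1.88, limma adjusted p = 0.0041) and was not called at E16.5 (0.59, limma adjusted p = 0.9998). Where its probe set lies relative to the deleted part is not stated, so directions below are those of lenses labelled Klf4CN. Of 13 lens markers, 12 were tested, and their mean log2 signal was 15.0 to 15.7 at PN56 and 13.6 to 13.9 at E16.5. In whole lenses, fewer cells of a type and less RNA per cell cannot be told apart.

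**Figure D1:**
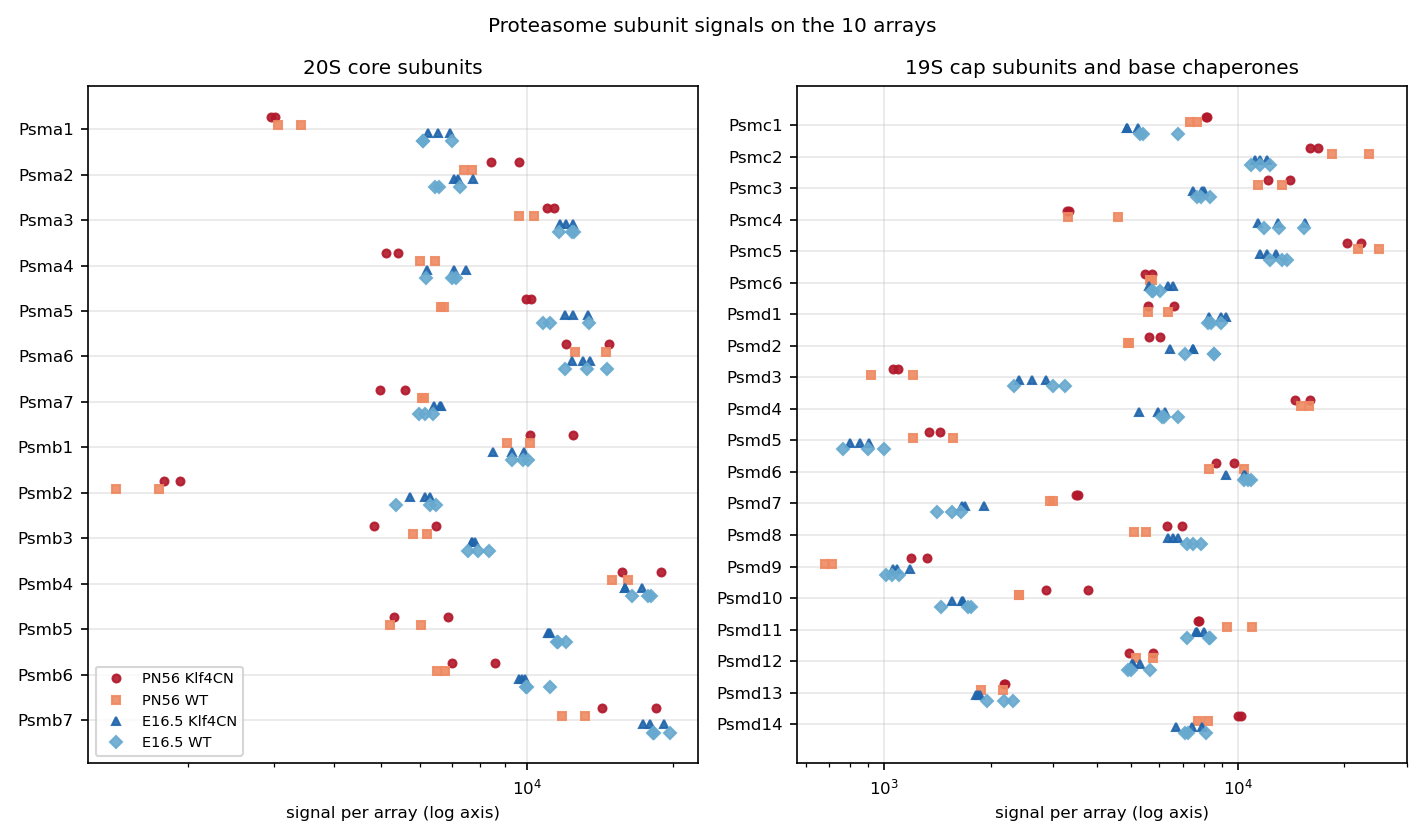
Signal of each proteasome gene on each of the 10 arrays, on a log axis, for the 14 core genes (left) and the 20 cap genes (right) that were tested. Rows are genes, points are arrays, and colours and shapes are the 4 groups. Psmb2, Psma1 and Psmc4 sit at lower signals on all 4 PN56 arrays than on any E16.5 array, and Psmd4 and Psmd7 at higher ones.

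At PN56, 31 of the 34 proteasome transcripts were not called between lenses labelled Klf4CN and WT lenses. Psmd9, of the cap's assembly, and Psma5, of the core, were higher in lenses labelled Klf4CN, and Psmd11, of the cap, was lower. The 3 called genes of 34 compare with 13.0% of all 13440 tested genes, so the share was not above the background. The median log2 difference was 0.09 over the 34, 0.16 over the core and 0.03 over the cap, beside -0.06 over all tested genes. Values are differences of log2(signal + 16), which understate the change of dim genes, and called means past an adjusted p of 0.05 by limma with Benjamini-Hochberg adjustment.

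Psmd9 encodes p27, a chaperone that helps assemble the ATPase ring and leaves the finished cap. Its signal was 1190.3 and 1324 in PN56 lenses labelled Klf4CN, against 710.4 and 680.0 in PN56 WT lenses. Both WT arrays lay below both arrays labelled Klf4CN, and below all 6 E16.5 arrays. The log2 difference was 0.84 ± 0.13 (SE; 95% CI 0.55 to 1.13), a fold of 1.79 on the log2(signal + 16) scale, with a limma adjusted p of 0.0019. A dimmer second probe set of Psmd9 gave 0.28 ± 0.31 (SE), which was not called.

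Psma5 encodes the alpha 5 subunit, part of the ring through which substrates enter. Signals were 9927 and 10165 in PN56 lenses labelled Klf4CN, against 6629 and 6744 in PN56 WT lenses, with no overlap. The log2 difference was 0.59 ± 0.11 (SE; 95% CI 0.34 to 0.83; limma adjusted p = 0.0060). Its second probe set, tested by itself, was also called higher, by 0.72.

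Psmd11 encodes Rpn6, a lid subunit known to clamp cap and core together. Signals were 7714 and 7780.1 in PN56 lenses labelled Klf4CN, against 10975 and 9296 in PN56 WT lenses. The WT arrays were both higher, and stood further apart than the arrays labelled Klf4CN did. The log2 difference was -0.38 ± 0.11 (SE; limma adjusted p = 0.040), and the call held in 7 of 21 alternative settings, against 20 of 21 for Psma5 and for Psmd9. All 3 calls were lost when the probe sets of a gene were averaged. Among its other probe sets with a mean log2 of at least 9, none was called, at -0.34, -0.51 and 0.21.

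The catalytic subunits were not called at PN56. Psmb5, which carries the chymotrypsin-like site, had signals of 5302 and 6873 in lenses labelled Klf4CN and 6046 and 5216 in WT lenses, which overlap. Psmb6, with the caspase-like site, had 6988 and 8590.3 in lenses labelled Klf4CN and 6753 and 6511 in WT lenses. Psmb7, with the trypsin-like site, had 14245 and 18368 in lenses labelled Klf4CN and 11804 and 13168 in WT lenses. For these 3 genes the log2 differences were 0.10, 0.22 and 0.38, with limma adjusted p-values of 0.62, 0.21 and 0.063. Their 95% intervals were -0.16 to 0.37 for Psmb5, -0.02 to 0.46 for Psmb6 and 0.11 to 0.64 for Psmb7. In all 3, the second replicate labelled Klf4CN had the highest PN56 signal.

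That array also had the highest core mean of the 4 PN56 arrays. Mean log2 signal over the 14 core genes was 12.77 and 12.97 in PN56 lenses labelled Klf4CN, against 12.74 and 12.77 in PN56 WT lenses. Without the second replicate labelled Klf4CN, the core's median log2 difference was 0.04, and without the first it was 0.28. Over the 34 genes, 20 had groups that did not overlap, beside 50.8% of all tested genes.

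Other cap genes came close to the threshold without passing it. Psmd8 (Rpn12, a lid subunit) had a log2 difference of 0.33 with a limma adjusted p of 0.051. For Psmd14, the lid's deubiquitinase, the values were 0.34 and 0.058. Psmd10 (gankyrin, a base chaperone like Psmd9) had 0.45 and a limma adjusted p of 0.062. The ATPase Psmc2 pointed the other way at -0.34, with a limma adjusted p of 0.078. These 4 were singled out after their values were seen.

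The PN56 groups also compared as follows in a control and in markers of other cells. The 18S 5′ control had signals of 5700.1 and 11005 in lenses labelled Klf4CN, against 527.5 and 2870.0 in WT lenses, with no overlap. The lens list had a mean log2 signal of 15.0 on both arrays labelled Klf4CN, against 15.5 to 15.7 in WT. The 9 pigment cell markers, 7 of them tested, had 7.73 to 7.93 against 8.51 to 9.14 in WT. The 12 macrophage markers had 7.36 to 7.91 against 7.03 to 7.40 in WT, which overlap. For the 11 photoreceptor markers on the array, of 12 listed and with 8 of them tested, the ranges were 8.32 to 9.82 and 8.58 to 8.69 in WT, which overlap. The 7 mesenchyme markers had 8.01 on both arrays labelled Klf4CN, against 7.72 to 7.95 in WT, and the ranges of the retinal progenitor, endothelial and erythroid lists overlapped. The part of the 18S control or of these cells in the proteasome values was not tested.

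**Figure D2:**
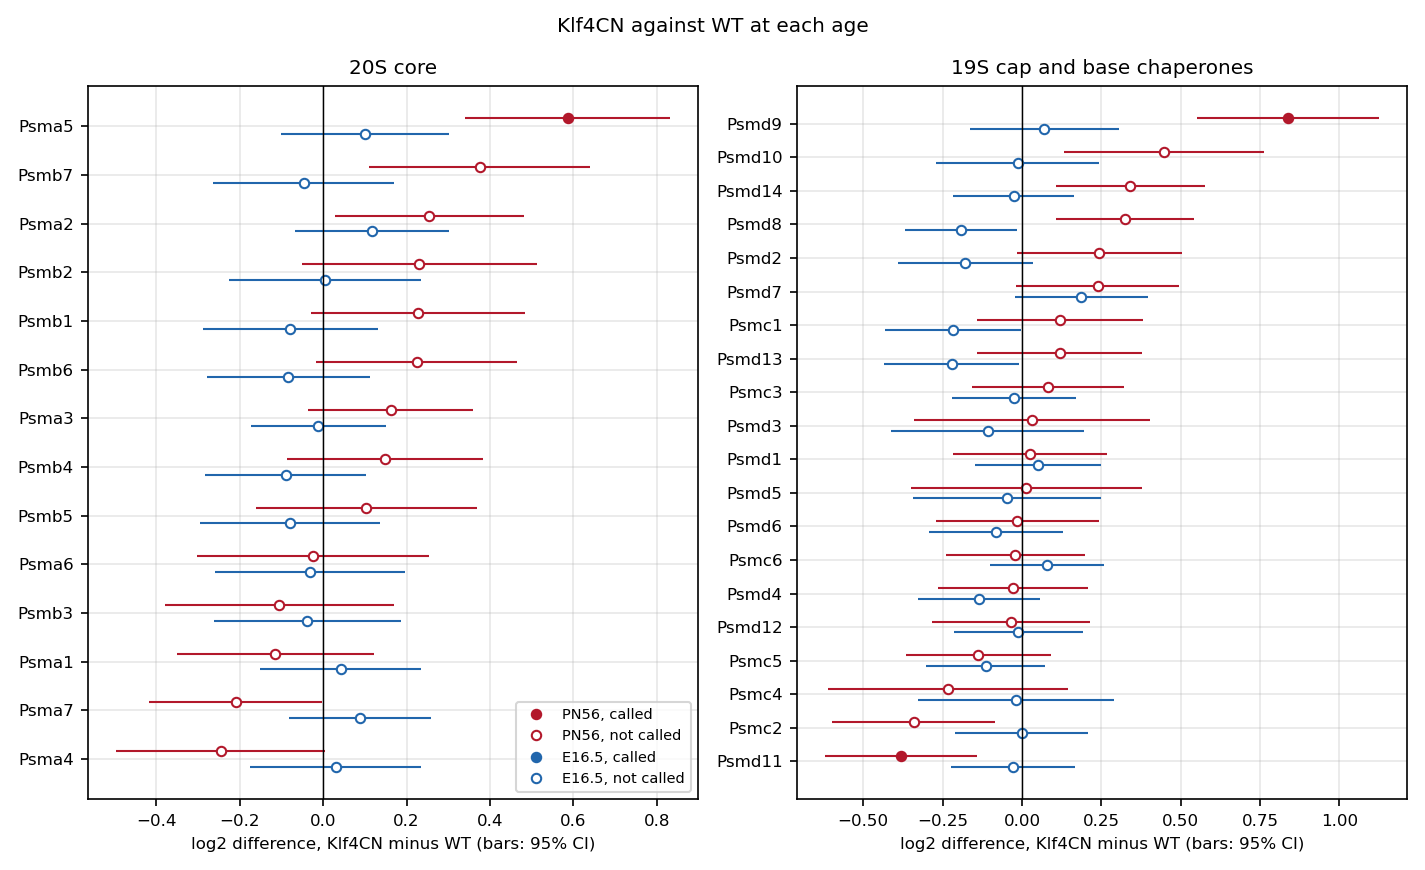
Log2 differences between lenses labelled Klf4CN and WT lenses for each proteasome gene, at PN56 (red) and E16.5 (blue), with bars for the 95% CI and filled points for genes called in limma. Psma5, Psmd9 and Psmd11 are the filled points, all at PN56, and the E16.5 values lie between -0.22 and 0.19.

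At E16.5, proteasome transcripts did not differ detectably with genotype. None of the 34 genes was called in limma, where 0.00744% of all tested genes were called, and 3 of the 34 had an unadjusted p under 0.05. The log2 differences ran from -0.22 to 0.19, with a median of -0.02 over the core and -0.03 over the cap, beside a median of -1e-04 over all tested genes. The widest 95% interval reached 0.31 to either side of its estimate.

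The members at the ends of that range were not past the test. The 3 highest were Psmd7, a lid subunit, at 0.19, Psma2 at 0.12 and Psma5 at 0.10. Lowest were Psmd13, another lid subunit, at -0.22, the ATPase Psmc1 at -0.22 and Psmd8 at -0.19. Psmd13, Psmc1 and Psmd8 were also the 3 with an unadjusted p under 0.05. The catalytic subunits Psmb5, Psmb6 and Psmb7 had log2 differences of -0.08, -0.08 and -0.05. Groups did not overlap for 7 of the 34, beside 11.8% of all tested genes. On these arrays the 18S 5′ control was 20897 to 22776 in lenses labelled Klf4CN, against 1155 to 2413 in WT lenses. The 7 mesenchyme markers had a mean log2 signal of 8.725 to 8.86 in lenses labelled Klf4CN and 7.93 to 8.60 in WT lenses, with no overlap. For the 11 tested markers of retinal progenitors and neurons, of 13, it was 8.86 to 10.3 in lenses labelled Klf4CN. In WT lenses that list had 6.08 to 9.24, which overlaps, as did the ranges of the other lists. The part of the 18S control or of these cells in the E16.5 proteasome values was not tested.

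The genotype difference itself was then compared between the ages. Its change, PN56 minus E16.5, was called for 2 of the 34 genes in limma, Psmd9 and Psmd8, beside 4.75% of all tested genes. The median change was 0.12 over the 34, 0.18 over the core and 0.09 over the cap, against -0.06 over all tested genes.

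For Psmd9 the change was 0.77 ± 0.17 (SE; limma adjusted p = 0.027). Its E16.5 signals were 1058, 1186 and 1086 in lenses labelled Klf4CN, against 1054, 1102 and 1011 in WT lenses, which overlap. For Psmd8 the change was 0.52 ± 0.13 (SE; limma adjusted p = 0.040). Its signals at PN56 were 6300.5 and 6975 in lenses labelled Klf4CN and 5074 and 5512 in WT lenses. At E16.5 they were 6555, 6783 and 6339 in lenses labelled Klf4CN and 7458, 7884 and 7169.6 in WT lenses, so the group labelled Klf4CN lay above WT at PN56 and below it at E16.5. Neither of those differences passed the test by itself, and the call on the change held in 6 of 20 alternative settings, against 11 of 20 for Psmd9. Psma5, called at PN56, had a change of 0.49 that was not called (limma adjusted p = 0.083), and Psmd11 had -0.35 (limma adjusted p = 0.18). The second probe set of Psma5, tested by itself, was called for the change, at 0.69 (limma adjusted p = 0.044). That of Psmd9 had a change of 0.12, which was not called.

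With age, core genes fell where they were called in WT lenses, while cap genes were called in both directions. In lenses labelled Klf4CN, 11 of the 34 genes rose and 12 fell at PN56 against E16.5, beside 52.1% of all tested genes called. In WT lenses, 9 rose and 14 fell, beside 55.7% of all tested genes. In both genotypes 8 of the 14 core genes fell, and 9 of the 20 cap genes rose, the base chaperones Psmd5 and Psmd10 among them. The core had 2 genes that rose in lenses labelled Klf4CN and 0 in WT, and the cap had 4 that fell in lenses labelled Klf4CN and 6 in WT. The arrays of the 2 ages did not overlap for 26 of the 34 genes in each genotype, beside 70.0% of all tested genes in lenses labelled Klf4CN and 70.4% in WT lenses. Of all tested genes, 21.6% rose and 30.5% fell in lenses labelled Klf4CN, and 25.0% rose and 30.7% fell in WT lenses.

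Medians moved apart in the same way. In lenses labelled Klf4CN the median log2 difference with age was -0.32 over the core and 0.21 over the cap, beside -0.10 over all tested genes. In WT lenses it was -0.34 over the core and 0.09 over the cap, beside -0.04. Within an array, the mean log2 signal of the cap minus that of the core was -0.372 and -0.556 at PN56 in lenses labelled Klf4CN, and -0.358 and -0.503 in PN56 WT lenses. At E16.5 it was -1.001, -1.002 and -1.001 in lenses labelled Klf4CN, and -0.991, -0.991 and -0.882 in WT lenses. The 4 PN56 arrays all lay above the 6 E16.5 arrays in this difference, which the scaling of an array as a whole moves little, and the genotypes overlapped at PN56. The size of such a difference mixes probe sets of different brightness, so it says nothing of the amount of cap per core.

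**Figure D3:**
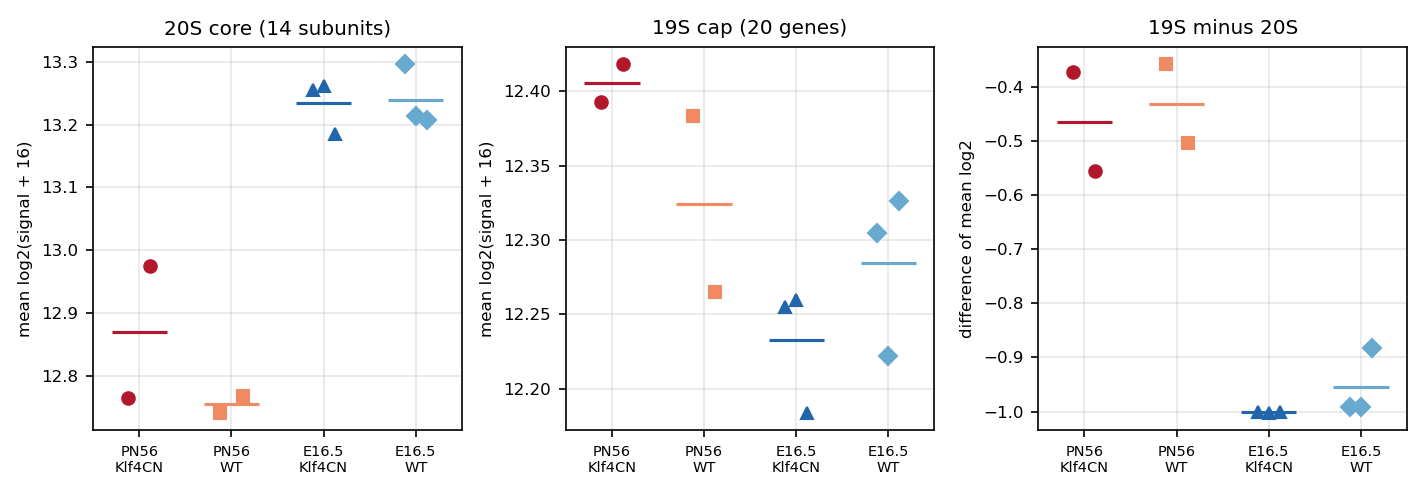
Mean log2(signal + 16) on each array over the 14 core genes (left), over the 20 cap genes (middle), and the cap mean minus the core mean (right), by group, with lines for group means. Core means lie at 12.74 to 12.97 on the 4 PN56 arrays and 13.18 to 13.30 on the 6 E16.5 arrays, and cap minus core is higher on all 4 PN56 arrays.

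Directions with age depended on the scaling of the arrays, whose median signals were higher at PN56. Centring each array on its median moved the median of all tested genes to -0.45 in lenses labelled Klf4CN and -0.56 in WT lenses. With that centring the core had 0 genes higher and 10 lower in lenses labelled Klf4CN, and 0 higher and 14 lower in WT. The cap then had 6 higher and 8 lower in lenses labelled Klf4CN, and 2 higher and 11 lower in WT. With quantile normalization the core had 0 higher and 11 lower in lenses labelled Klf4CN and 0 higher and 9 lower in WT, while the cap had 9 higher and 5 lower in lenses labelled Klf4CN and 9 higher and 6 lower in WT. The core median stayed below the cap median under both.

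Among the alpha subunits, 4 fell and 1 rose of 7 tested in lenses labelled Klf4CN, and 3 fell and 0 rose in WT. Psma1 (alpha 6) had signals of 3017 and 2960.3 in PN56 lenses labelled Klf4CN, against 6908, 6526 and 6249 at E16.5. In WT lenses its signals were 3064 and 3420.2 at PN56, against 6087, 6078 and 6974 at E16.5. Every PN56 array lay well below every E16.5 array. The log2 differences were -1.13 ± 0.10 in lenses labelled Klf4CN and -0.97 ± 0.10 in WT (SE; limma adjusted p = 1.5e-06 and 4.8e-06). Psma5 fell in both, at -0.32 in lenses labelled Klf4CN and -0.81 in WT. In lenses labelled Klf4CN that call held in 16 of 21 alternative settings. The second probe set of Psma5 was called lower in WT, at -0.84, but not in lenses labelled Klf4CN, at -0.15. For Psma5 the change in genotype effect was called only with that second probe set, as given above. Psma2, the alpha gene that rose in lenses labelled Klf4CN, had 0.30 there, which turned to -0.0489 with arrays centred on their median, and 0.16 in WT, where it was not called. It was named after its values were seen. Psma4 fell in lenses labelled Klf4CN, at -0.39, and had -0.11 in WT, where it was not called. When the probe sets of a gene were averaged, Psma1 in WT turned to 0.0093, its other probe sets being dim.

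Among the beta subunits, 4 fell and 1 rose of 7 tested in lenses labelled Klf4CN, and 5 fell and 0 rose in WT. Psmb2 fell most of the core. It is a beta subunit without an active site, and its signals were 1778 and 1917 in PN56 lenses labelled Klf4CN, against 6136, 6302 and 5716 at E16.5. In WT lenses they were 1418 and 1741 at PN56, against 6486, 6296 and 5356 at E16.5, again without overlap. The log2 differences were -1.70 ± 0.12 in lenses labelled Klf4CN and -1.93 ± 0.12 in WT (SE; limma adjusted p = 2.2e-07 and 6.4e-08).

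The catalytic genes fell to different extents with age. Psmb5, whose signals at PN56 are given above, had 11038, 11138 and 11051 at E16.5 in lenses labelled Klf4CN and 12025, 11505 and 11587 in WT, all above every PN56 array. Its log2 differences were -0.87 ± 0.11 in lenses labelled Klf4CN and -1.06 ± 0.11 in WT (SE; limma adjusted p = 3.4e-05 and 6.2e-06). Psmb6 fell, at -0.33 in lenses labelled Klf4CN and -0.64 in WT on the log2 scale. Psmb7 had -0.16 in lenses labelled Klf4CN, not called, and fell by 0.58 in WT. The change in genotype effect was not called for Psmb5, Psmb6 or Psmb7, with limma adjusted p-values of 0.55, 0.25 and 0.15. Psmb3 fell in both, at -0.47 in lenses labelled Klf4CN and -0.40 in WT. Psmb1 rose in lenses labelled Klf4CN, at 0.29, which turned to -0.0552 with arrays centred on their median, and had -0.02 in WT, where it was not called. A dimmer probe set of Psmb1 was called lower in lenses labelled Klf4CN, at -0.77, and higher in WT, at 1.04. Another, dimmer still, was called higher in both, at 2.32 in lenses labelled Klf4CN and 2.84 in WT, so the gene's probe sets disagree. The former was also called lower in lenses labelled Klf4CN than in WT lenses at PN56, at -1.62. It was called lower for the change between ages too, at -1.81.

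Of the 6 ATPases of the cap's base, 4 were higher and 1 lower at PN56 in each genotype. Psmc5 (Rpt6) had signals of 22313 and 20356 in PN56 lenses labelled Klf4CN, against 12831, 12072 and 11556 at E16.5. In WT lenses the signals were 25119 and 21874 at PN56, against 13366, 12322 and 13796 at E16.5. The log2 differences were 0.81 ± 0.10 in lenses labelled Klf4CN and 0.83 ± 0.10 in WT (SE; limma adjusted p = 2.0e-05 and 1.4e-05). In lenses labelled Klf4CN the ATPase genes Psmc3 (Rpt5), Psmc1 (Rpt2) and Psmc2 (Rpt1) rose by 0.74, 0.71 and 0.50 on the log2 scale. In WT lenses Psmc3 rose by 0.63, Psmc2 by 0.84 and Psmc1 by 0.37, the last turning to -0.14 with arrays centred on their median. Within an array, the ATPase mean minus the core mean was 0.426 and 0.238 at PN56 in lenses labelled Klf4CN and 0.583 and 0.489 in PN56 WT lenses. At E16.5 it lay between -0.198 and 0.001 on all 6 arrays.

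Psmc4 (Rpt3) went against the other ATPases. Its signals were 3285 and 3336 in PN56 lenses labelled Klf4CN, against 12990.4, 11391 and 15511 at E16.5. In WT lenses they were 3305 and 4583 at PN56, against 15387, 11886 and 13078 at E16.5. The log2 differences were -1.99 ± 0.16 in lenses labelled Klf4CN and -1.78 ± 0.16 in WT (SE; limma adjusted p = 6.7e-07 and 1.6e-06). A second probe set of Psmc4 was also called lower in both, by less, at -0.63 in lenses labelled Klf4CN and -0.66 in WT.

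The non-ATPases of the cap had members at both ends, with 5 of 14 higher and 3 lower in lenses labelled Klf4CN, and 5 higher and 5 lower in WT. Psmd4 (Rpn10), a receptor for ubiquitin chains, rose most of the 34. Its signals were 14517 and 15984 in PN56 lenses labelled Klf4CN, against 6211, 5951 and 5249 at E16.5. In WT lenses they were 15938 and 15136 at PN56, against 6186, 6124 and 6790.4 at E16.5, so that no array of one age reached the range of the other. The log2 differences were 1.39 ± 0.10 in lenses labelled Klf4CN and 1.29 ± 0.10 in WT (SE; limma adjusted p = 2.7e-07 and 4.3e-07), and its second probe set gave 1.58 in lenses labelled Klf4CN and 1.56 in WT.

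Psmd7 (Rpn8), the lid partner of the deubiquitinase Psmd14, also rose in both. Its signals were 3533 and 3489.8 in PN56 lenses labelled Klf4CN, against 1661, 1910.4 and 1696 at E16.5. The WT signals were 2951 and 2998 at PN56, against 1416, 1648 and 1557 at E16.5. Log2 differences were 0.996 ± 0.11 in lenses labelled Klf4CN and 0.95 ± 0.11 in WT (SE; limma adjusted p = 8.6e-06 and 1.2e-05). Averaging in its other, dim probe sets turned the WT value of Psmd7 to -0.28.

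The 3 base chaperones did not move together. Psmd10 rose by 1.01 in lenses labelled Klf4CN and 0.55 in WT. Psmd5 rose by 0.69 in lenses labelled Klf4CN and 0.63 in WT. Psmd9 had 0.18 in lenses labelled Klf4CN, not called, and fell by 0.59 in WT.

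Psmd3, Psmd1 and Psmd2, the last 2 being the large scaffolds of the base, fell in both genotypes. Psmd3 (Rpn3), a lid subunit, had signals of 1093 and 1061 in PN56 lenses labelled Klf4CN, against 2869.6, 2619.6 and 2410.5 at E16.5. In WT lenses its signals were 1205 and 921 at PN56, against 2995, 2332 and 3247 at E16.5. Its log2 differences were -1.27 ± 0.16 in lenses labelled Klf4CN and -1.41 ± 0.16 in WT (SE; limma adjusted p = 2.5e-05 and 9.6e-06). Psmd1 (Rpn2) fell, at -0.54 in lenses labelled Klf4CN and -0.52 in WT, and Psmd2 (Rpn1) fell, at -0.29 in lenses labelled Klf4CN and -0.71 in WT on the log2 scale. With its probe sets averaged, Psmd2 turned to 0.25 in lenses labelled Klf4CN. Psmd8 had 0.02 in lenses labelled Klf4CN, not called, and fell by 0.50 in WT. Psmd11 had -0.01 in lenses labelled Klf4CN, not called, and rose by 0.35 in WT, turning to -0.17 with arrays centred on their median. Its 3 other probe sets with a mean log2 of at least 9 were called in both genotypes and disagree. One was lower, at -0.76 in lenses labelled Klf4CN and -0.44 in WT, while the others were higher, at 0.67 and 0.64 in lenses labelled Klf4CN and at 1.06 and 0.43 in WT.

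Set side by side, the age comparisons of the genotypes called 8 genes higher in both and 10 lower in both, with 0 called in opposite directions and 6 called in neither. A further 3 were called higher and 2 lower in lenses labelled Klf4CN alone, and 1 higher and 4 lower in WT alone. These are counts of calls, and no like count was made over all tested genes. Of all tested genes, 52.1% were called with age in lenses labelled Klf4CN and 55.7% in WT lenses. The difference between genotypes was tested only as the change above, which called Psmd8 and Psmd9. Other probe sets of the called genes shared their sign in 8 of 10 cases in lenses labelled Klf4CN and 8 of 13 in WT. Among those with a mean log2 of at least 9, they did in 6 of 6 in lenses labelled Klf4CN and 7 of 8 in WT. Genes called in neither genotype fall outside that count. Psmd6 had a probe set nearly as bright, called lower at -0.76 in lenses labelled Klf4CN and -0.70 in WT. Dimmer probe sets of Psmc6 were called lower, at -1.18 and -1.21 in lenses labelled Klf4CN and -0.70 and -1.04 in WT. A dimmer one of Psma6 was called higher, at 1.58 in lenses labelled Klf4CN and 0.94 in WT. In lenses labelled Klf4CN alone, others were called for Psmb4, at -0.55, and Psmd13, at 1.80.

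Marker lists of other cells also differed with age, some lower and one higher at PN56. The 12 macrophage markers had a mean log2 signal of 7.03 to 7.91 on PN56 arrays and 9.04 to 9.76 on E16.5 arrays. For the 7 endothelial markers the ranges were 5.51 to 6.45 at PN56 and 9.07 to 9.72 at E16.5. The 3 erythroid markers on the array, of 5 listed and with 2 of them tested, had 5.27 to 6.44 at PN56 and 7.89 to 8.37 at E16.5. The 11 photoreceptor markers on the array, 8 of them tested, had 8.32 to 9.82 at PN56 and 4.98 to 5.43 at E16.5. The pigment cell, retinal progenitor and mesenchyme lists overlapped between the ages. The part of these cells in the age values was not tested.

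**Figure D4:**
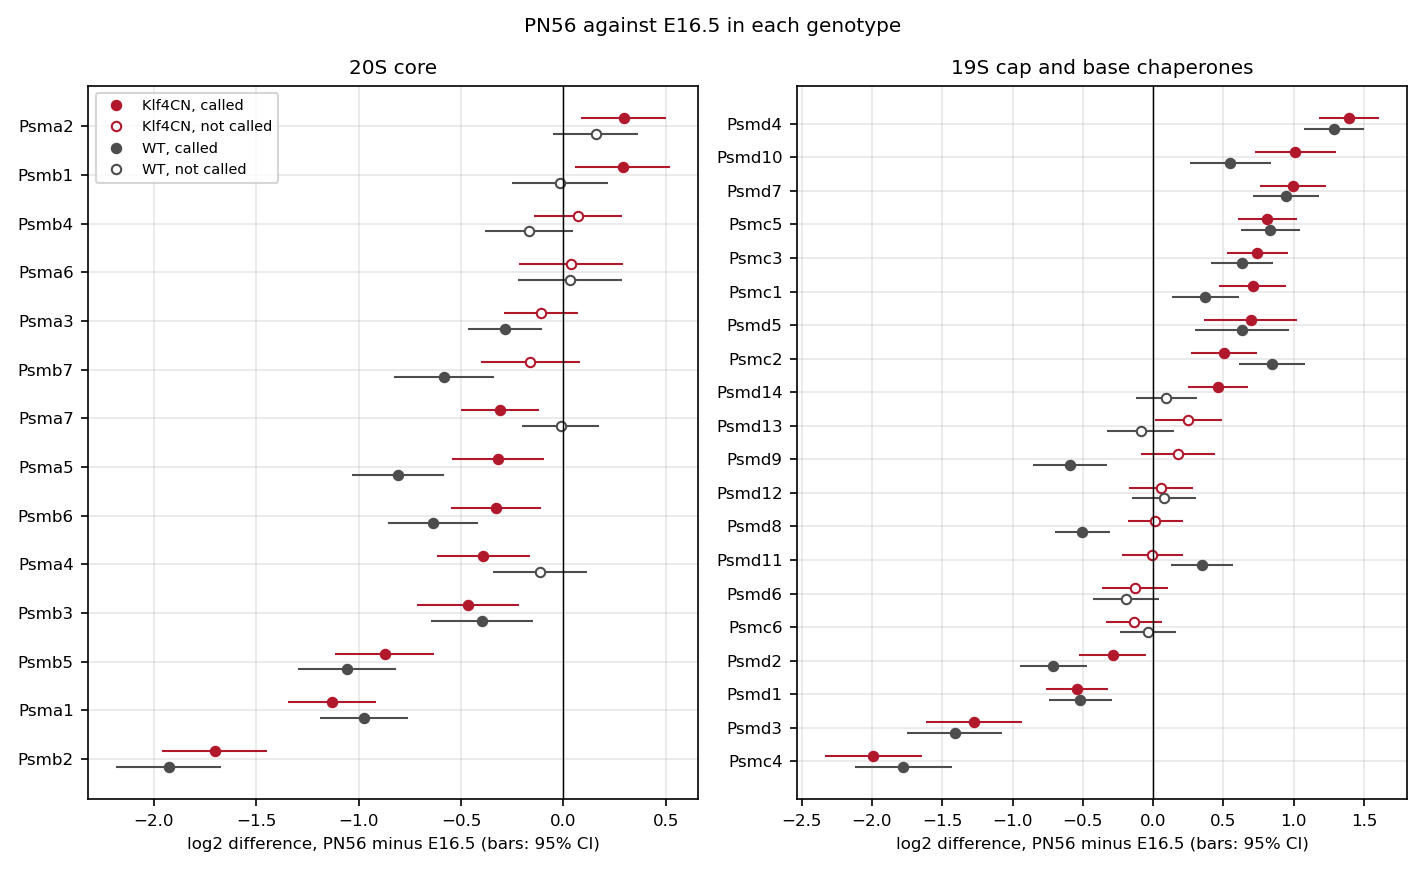
Log2 difference of PN56 against E16.5 for each proteasome gene, in lenses labelled Klf4CN (red) and in WT lenses (grey), with bars for the 95% CI and filled points for genes called in limma. Psmb2, Psma1 and Psmb5 are the lowest of the core in both genotypes, and the cap spans -1.99 for Psmc4 to 1.39 for Psmd4 in lenses labelled Klf4CN.

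Genes that act with the proteasome, taken from lists of 45 genes outside the symbol rule, were tested in the same fit. Of the 45, 35 were tested, and their calls were not checked under the alternative settings or in other probe sets. At PN56, 7 of the 35 were higher and 5 lower in lenses labelled Klf4CN than in WT lenses, beside 6.04% and 6.98% of all tested genes. At E16.5, 0 of the 35 were called in limma.

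Sem1 is a small lid subunit that the symbol rule does not take in. Its signals were 5557 and 7977 in PN56 lenses labelled Klf4CN, against 2164 and 3566 in PN56 WT lenses. The arrays labelled Klf4CN were both above the WT arrays, and the replicates of each group stood well apart. The log2 difference was 1.26 ± 0.20 (SE; limma adjusted p = 0.0023). Uchl5, a deubiquitinase bound to the cap, had 5041 and 5215 in lenses labelled Klf4CN against 3306 and 3465 in WT, a log2 difference of 0.60 ± 0.10 (SE; limma adjusted p = 0.0030).

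Chaperones that assemble the core were represented by 6 tested genes, of which 2 were higher and 0 lower. Psmg4 had signals of 703 and 808 in PN56 lenses labelled Klf4CN, against 247 and 311 in PN56 WT lenses. The log2 difference was 1.39 ± 0.19 (SE; limma adjusted p = 0.00094). Pomp, the core maturation factor, had a log2 difference of 0.43 (limma adjusted p = 0.047).

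The activators moved in opposite directions. Psme4 (PA200), a nuclear activator of the core, had signals of 5240.2 and 4484 in PN56 lenses labelled Klf4CN, against 2958 and 2851 in PN56 WT lenses. Psme3 (PA28 gamma), another nuclear activator, had 1894 and 1873 in PN56 lenses labelled Klf4CN, against 2898 and 3051 in PN56 WT lenses. Groups did not overlap for either gene. The log2 differences were 0.74 ± 0.12 for Psme4 and -0.65 ± 0.12 for Psme3 (SE; limma adjusted p = 0.0029 and 0.0047).

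Of the 12 tested genes on the route from p97 to Nrf1, 2 were higher and 2 lower. Nfe2l1 had signals of 2490.1 and 1917 in PN56 lenses labelled Klf4CN, against 1043 and 1489 in PN56 WT lenses. Its log2 difference was 0.80 ± 0.17 (SE; limma adjusted p = 0.0097), and that of its partner Mafg was 0.81 ± 0.15 (SE; limma adjusted p = 0.0050). The p97 ATPase Vcp, which extracts Nfe2l1 protein from the endoplasmic reticulum, was lower, at -0.68 (limma adjusted p = 0.0044). Its cofactor Ufd1, named after its value was seen, had -0.48 (limma adjusted p = 0.034). The ubiquitin shuttle Rad23b and the ubiquitin-activating enzyme Uba6 were also lower, at -0.64 and -0.93 (limma adjusted p = 0.0044 and 0.017).

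The immunoproteasome genes Psmb8, Psmb9 and Psmb10, which replace the catalytic beta subunits in immune cells and under interferon, were not called at PN56. Their log2 differences were -0.68, 0.27 and 0.51, with 95% intervals of -1.72 to 0.36, -0.90 to 1.43 and -0.07 to 1.09.

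The change of the genotype effect between ages was called higher for 6 of the 35 genes and lower for 1, beside 2.66% and 2.09% of all tested genes. The 6 were Sem1 (1.28), Psmg4 (1.23), Nfe2l1 (0.87), Mafg (0.79), Psme4 (0.77) and Uchl5 (0.57), and the gene that was lower was Psme3 (-0.66). With age, 5 of the 35 rose and 17 fell in lenses labelled Klf4CN, beside 21.6% and 30.5% of all tested genes. In WT lenses 5 of the 35 rose and 16 fell, beside 25.0% and 30.7% of all tested genes. Mafg fell, at -1.54 in lenses labelled Klf4CN and -2.33 in WT, and Psme4 fell, at -1.002 in lenses labelled Klf4CN and -1.77 in WT on the log2 scale. Psmg2, a core assembly chaperone, fell, at -1.43 in lenses labelled Klf4CN and -1.30 in WT. Psme3 rose by 1.07 in lenses labelled Klf4CN and 1.74 in WT, and Uchl5 rose by 1.24 in lenses labelled Klf4CN and 0.67 in WT. These age comparisons share their PN56 arrays with the genotype comparison at PN56.

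**Figure D5:**
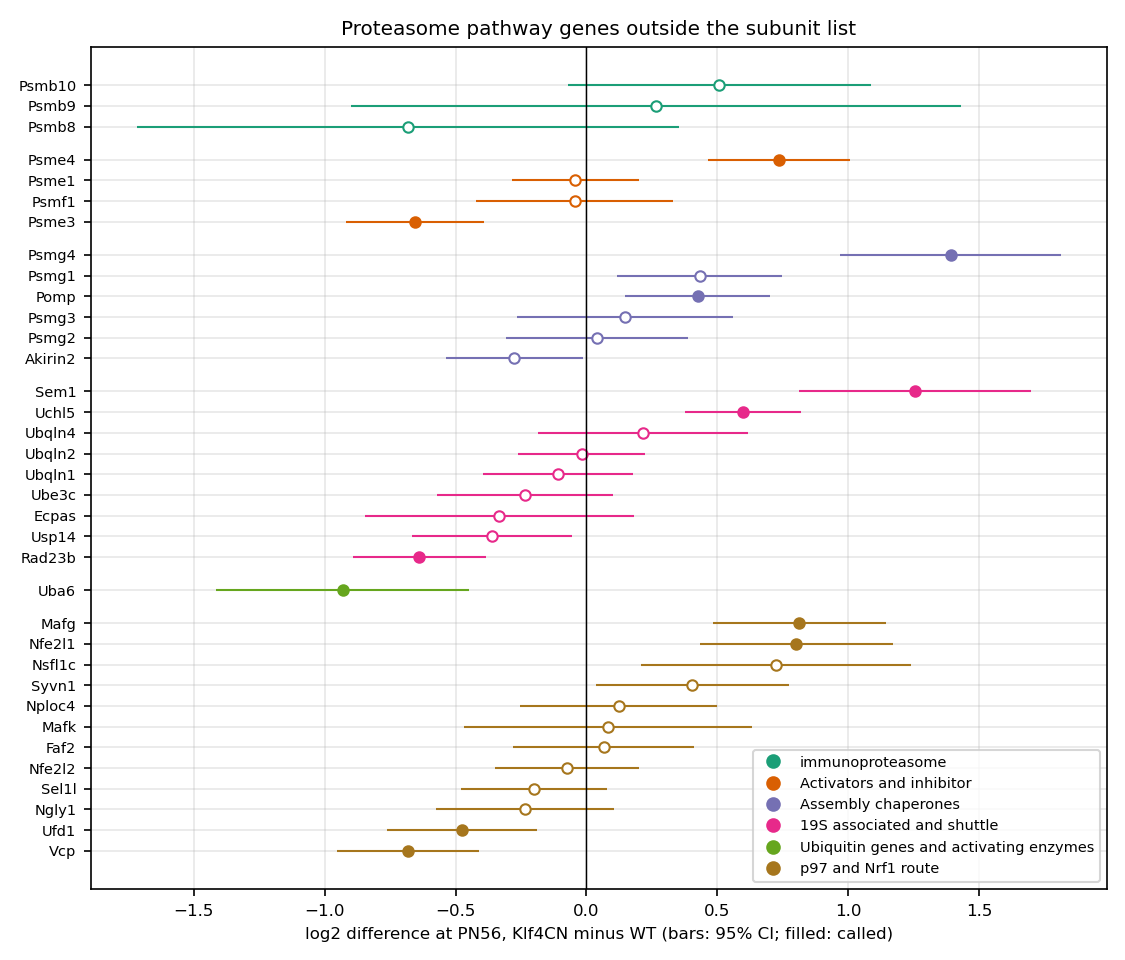
Log2 difference at PN56 between lenses labelled Klf4CN and WT lenses for the 35 tested genes of the lists outside the symbol rule, coloured by list, with bars for the 95% CI and filled points for genes called in limma. The 12 filled points run from -0.93 for Uba6 to 1.39 for Psmg4, and the 3 immunoproteasome genes have open points.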

How the data were processed

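Whole-lens RNA was hybridised to Affymetrix mouse arrays, 1 array per preparation. The deposited values are linear intensities, 1 signal per probe set, made with GCOS 1.4 per the submitters' processing notes, and each array's mean after trimming 2% at each end is 500. The labels used here record no other upstream step. Of 45101 probe sets, 34945 carried a single gene symbol. A gene was represented by its brightest probe set over the 10 arrays. Genes whose mean log2(signal + 16) reached the 40th percentile of all probe sets, 13440 of them, were tested in 1 limma fit (version 3.58.1, R 4.3.3) with 4 group means and an intensity trend in eBayes. Tests were two-sided, adjusted by Benjamini-Hochberg over all tested genes, and checked on simulated data. All 5 comparisons share arrays. The proteasome members, gene lists and naming rule were chosen with earlier results of these data known. The text names the catalytic subunits, every called member up to 8 in each direction, members that pass the change between ages, and up to 3 genes of smallest p per list. Few arrays per group limit the precision.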

Additional observations from a re-analysis of the deposited data

Results flagged for a closer look

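The genotype effect differed between ages for Psmd9 and Psmd8, by the test of the difference itself. For Psmd9 the effect at PN56 minus that at E16.5 was 0.77 on the log2 scale (limma adjusted p = 0.027), with an effect of 0.84 at PN56 and 0.07 at E16.5. For Psmd8 the change was 0.52 (limma adjusted p = 0.040), with 0.33 at PN56 and -0.19 at E16.5. Both rest on 2 arrays per genotype at PN56, and the alternatives below left between 0 and 4 proteasome genes called. No group was large enough to be searched for a stray array.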

How the results depend on the processing

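Klf4CN against WT at E16.5 gave 0 called proteasome genes under every alternative run in limma, with 3 at an unadjusted p under 0.05 in the reported fit. At PN56, where 3 genes were called, 5 were called with the filter at the 60th percentile. When the probe sets of a gene were averaged, Psma5, Psmd9 and Psmd11 all lost their calls and 1 other gene, Psmb1, was called lower. The change between ages had 2 called genes, and 1 with quantile normalization, centring on array medians, no filter or every probe set by itself, and 0 with the mean of probe sets or no intensity trend. Leaving out 1 array at a time gave 2 to 6 genes at PN56, the 6 without the first PN56 replicate labelled Klf4CN, and 0 to 4 for the change, the 4 also without that array. The count called with age, 23 in each genotype, was 18 to 25 in lenses labelled Klf4CN and 19 to 27 in WT over all alternatives, and 18 to 23 and 19 to 23 with 1 array left out. The median over the 34 genes, 0.09 at PN56, was 0.0404 with quantile normalization, 0.22 with centring and 0.02 with the mean of probe sets, and 0.00 to 0.15 with 1 array left out. For the change, 0.12, it was 0.032, 0.29 and 0.0563 under those 3 settings, and 0.0661 to 0.19 with 1 array left out. With age the median was 0.01 in lenses labelled Klf4CN, and -0.21 with quantile normalization, -0.34 with centring and -0.0596 to 0.0556 with 1 array left out. In WT it was -0.10, and -0.62 with centring and -0.18 to -0.0493 with 1 array left out. The cause of these shifts was not tested.

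Directions of genes called as reported or under the alternative turned as follows, leaving aside values called under neither. With the mean of probe sets, Psmb1 at PN56 was -0.78, and with age in WT Psma1 was 0.0093, Psma3 0.30, Psmb1 1.29 and Psmd7 -0.28, while Psmd2 with age in lenses labelled Klf4CN was 0.25. With centring, age in lenses labelled Klf4CN turned for Psma2 (-0.0489), Psmb1 (-0.0552) and Psmd8 (-0.33), and age in WT for Psma2 (-0.36), Psma6 (-0.49), Psmc1 (-0.14), Psmd11 (-0.17), Psmd12 (-0.44) and Psmd14 (-0.42). With quantile normalization, Psmb4 with age in lenses labelled Klf4CN was -0.28. Same-numbered replicates deviated together with correlations of 0.269, 0.242 and 0.051 at E16.5. At PN56 the correlation was 0.043, a single value, because with 2 arrays per group both replicate numbers must give the same correlation. The numbers were not taken as pairs because 0.051 and 0.043 are near 0, though 0.269 and 0.242 are not. At E16.5, 5 of 6 arrays correlated best with their own number, a hint of pairing from the data that the labels do not state. With the replicate block 4 genes were called at PN56, 0 at E16.5, 2 for the change, and 21 in lenses labelled Klf4CN and 23 in WT with age. A fit on the compared groups alone gives the change no other value and was not run for it. Calls on single genes were lost in 16 combinations of gene and setting at PN56, 23 for the change, 39 for age in lenses labelled Klf4CN and 15 for age in WT, and gained in 10, 2, 14 and 13. Psma8 and Psmb11 were too dim to be tested.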
